A study of Mus musculus with 18 samples.

Results

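Sorted regulatory T cells (Treg) carrying a Dyrk1 deletion label were compared with Treg carrying an HDAC2 deletion label. These are 6 of the 18 libraries of the series, 3 per label. The Dyrk1-labelled cells came from mice with floxed Dyrk1 alleles and Foxp3YFPcre, and the HDAC2-labelled cells from mice with floxed HDAC2 alleles and a cre that the series text writes as Foxp3cre. Another 9 libraries, 3 per label, came from mice with floxed HDAC1, Mef2c or Mef2d alleles and Foxp3cre, and they enter the estimate of the spread and the ranges set beside the pair. The 3 libraries of Foxp3YFPcre mice without a deletion were left out of the fit. All samples were described as YFP-sorted Foxp3+ cells taken after CD4 column enrichment, from male mice 6 to 8 weeks old. The cre allele is driven by Foxp3, so deletion is restricted by design to cells that have expressed Foxp3, and every group of the series carries a Foxp3-driven cre. The label Dyrk1 does not say which DYRK1 kinase gene was floxed. The growth notes also name Rcor1 as the deleted gene, which no sample label does. The series text calls the replicates independent and biological, without saying how many mice made up each library.

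The pair was chosen by the levels of proliferation genes, since the labels lay at opposite ends of cell cycle gene expression among the deletion groups of these same libraries. Levels of proliferation genes are therefore given here as description, with no test. The test for every other gene is that of a fit across all genes, and its p-values carry no correction for the choice of the pair. RNA levels are the FPKM deposited by the authors, that is fragments scaled by gene length and by library depth, and differences are Dyrk1-labelled minus HDAC2-labelled on the log2(FPKM + 1) scale. The standard error (SE) and the Benjamini-Hochberg adjusted p come from limma, with an adjusted p under 0.05 called a pass.

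Treg are CD4+ T cells that hold back other immune cells, and in lymphoid tissue some of them are resting and recirculating while others are activated, dividing effector Treg. In a resting cell, E2F factors are held by pocket proteins, and the DREAM complex, made of pocket proteins, E2F4 and the MuvB core, represses genes of S phase and mitosis. DYRK1A is known in human cells to phosphorylate the MuvB subunit LIN52, a step needed to assemble DREAM. DYRK1 kinases are also known to phosphorylate D-type cyclins and NFAT factors. HDAC2 is a class I histone deacetylase that works with its paralog HDAC1 in the Sin3, NuRD and CoREST corepressor complexes.

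Depth estimated from the low values was 18.41 to 21.77 M reads in the Dyrk1-labelled libraries and 21.64 to 24.09 M reads in the HDAC2-labelled libraries. Dyrk1 replicate 1 stood apart in markers of other cell types. The mean log2(FPKM + 1) of the B cell list was 5.19 in that library and 2.43 and 2.41 in the other Dyrk1-labelled libraries, against 2.71 to 3.18 with the HDAC2 label. Cd8a was at 22.4 FPKM in Dyrk1 replicate 1 and at 0.939 and 0.642 FPKM in replicates 2 and 3, against 0.346 to 0.477 FPKM with the HDAC2 label. The 10 T cell core genes averaged 7.66 to 7.80 with the Dyrk1 label and 7.79 to 7.81 with the HDAC2 label on the same log2 scale. The Treg markers Foxp3, Il2ra, Ctla4 and Ikzf2 were read in all 6 libraries, and none of the 4 passed. Foxp3, the transcription factor that defines the lineage, was at 96.8, 112.7 and 111.3 FPKM with the Dyrk1 label and at 114.7, 87.1 and 98.0 FPKM with the HDAC2 label (log2 difference 0.10, SE 0.10, adjusted p 0.53).

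The targeted genes were examined first. Hdac2 (chr10:36974544-37001889 on mm10) was at 26.1, 25.9 and 26.6 FPKM with the Dyrk1 label and at 28.9, 27.7 and 27.1 FPKM with the HDAC2 label. It was not lower in the libraries labelled HDAC2, and the difference did not pass (log2 difference -0.09, SE 0.05, adjusted p 0.298). Dyrk1a (chr16:94570010-94695517), the kinase active toward DREAM, was at 32.6, 30.8 and 35.9 FPKM with the Dyrk1 label and at 29.0, 30.7 and 28.3 FPKM with the HDAC2 label (log2 difference 0.17, SE 0.08, adjusted p 0.159). Its paralog Dyrk1b (chr7:28179469-28187294), known for holding cells in quiescence, was at 11.01, 11.8 and 12.6 FPKM in the libraries labelled Dyrk1 and at 8.53, 7.13 and 6.57 FPKM in those labelled HDAC2. All Dyrk1-labelled libraries were above all HDAC2-labelled libraries for Dyrk1b (log2 difference 0.61, SE 0.10, adjusted p 0.00098). Hdac2, Dyrk1a and Dyrk1b were thus not lower under the labels that name them. The table gives a value per whole gene, so loss of a floxed exon from a transcript that is still made is not measured. The labels are used here as names of the libraries.

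Of 11526 genes tested, 2045 passed (17.7%), of which 968 were higher (8.40%) and 1077 lower (9.34%) with the Dyrk1 label. The counts for each gene list below are to be read beside these shares. The groups did not overlap for 2007 of the genes that passed. Over all genes tested, all 3 Dyrk1-labelled libraries lay above all 3 HDAC2-labelled ones for 14.0% and below them for 17.5%. Most differences were small. A log2 difference of at least 1 was seen for 273 of the genes that passed, 194 higher and 79 lower, and 42 of the 194 belonged to the cell cycle lists while 33 of the 79 were immunoglobulin segments. The median log2 difference over all genes was -0.03. The spread was estimated over all 15 libraries with a deletion label. When only the 6 libraries of the pair were fitted, 880 genes passed (7.63%), and 864 of these were among the 2045. Without HDAC2 replicate 1 the count was 1258, and without HDAC2 replicate 3 it was 1287. The count was 1465 when 3 libraries with many B cell transcripts were left out, which are replicate 1 of the Dyrk1, Mef2c and Mef2d labels.

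Genes of the cell cycle, which chose the pair, were higher with the Dyrk1 label throughout both lists. For S phase, 29 of 30 members could be tested, since Fen1 was below the minimum level, and 29 were higher, with a median log2 difference of 0.88 (lowest 0.50, highest 1.5). For G2 and mitosis, 32 of 32 members were higher, with a median of 1.42 (range 0.89 to 1.76). Both extremes of the mitotic list were chromosome genes, with Cenpa, a centromeric histone, at the low end and Top2a, the topoisomerase that untangles sister chromatids, at the high end.

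Top2a was at 84.7, 72.8 and 93.3 FPKM with the Dyrk1 label and at 19.8, 30.002 and 22.5 FPKM with the HDAC2 label. Mki67, the proliferation antigen Ki-67, was at 43.1, 39.3 and 54.1 FPKM with the Dyrk1 label and at 12.01, 14.8 and 12.4 FPKM with the HDAC2 label. Cdc20, an activator of the anaphase-promoting complex, was at 45.0, 41.3 and 40.5 FPKM with the Dyrk1 label and at 13.5, 17.7 and 15.6 FPKM with the HDAC2 label. For each of these genes the groups lay far apart, and the lowest Dyrk1-labelled library was above every HDAC2-labelled one. Among S phase genes, the replication clamp Pcna was at 233.7, 226.4 and 182.4 FPKM with the Dyrk1 label and at 128.3, 138.2 and 134.5 FPKM with the HDAC2 label. The helicase subunit Mcm5 was at 77.4, 70.4 and 88.4 FPKM with the Dyrk1 label and at 30.5, 37.8 and 31.2 FPKM with the HDAC2 label. The helicase subunits Mcm6 and Mcm7 had log2 differences of 0.84 and 0.88. The cyclin E gene Ccne1, which acts at the entry into S phase, had the smallest difference of that list, 0.50.

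The mean over each list placed both labels outside the rest of the deletion groups. With the Dyrk1 label the mean log2(FPKM + 1) of the S phase list was 4.39 to 4.50, with the HDAC2 label 3.40 to 3.56, and in the 9 libraries of the HDAC1, Mef2c and Mef2d labels 3.60 to 4.05. For G2 and mitosis the ranges were 4.12 to 4.26 with the Dyrk1 label, 2.59 to 2.89 with the HDAC2 label and 2.95 to 3.64 in the other 9 libraries. Gene by gene, the Dyrk1 mean was above the range of the other 9 libraries for 28 of 29 S phase genes, while the HDAC2 mean was below it for 19. For G2 and mitosis the counts were 32 and 29 of 32. In these bulk samples, fewer cells of a type and less RNA per cell cannot be told apart.

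**Figure D1:**
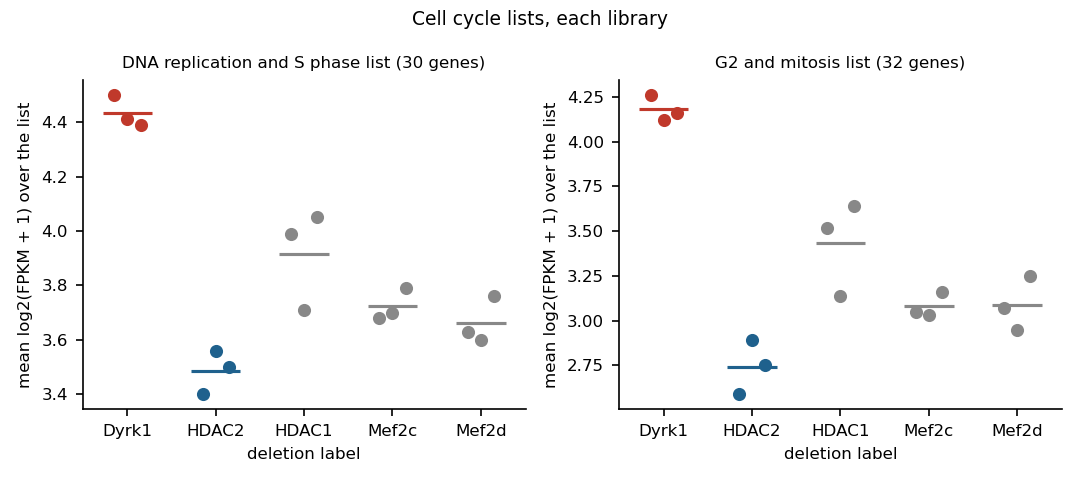
Mean log2(FPKM + 1) over the S phase list (left) and the G2 and mitosis list (right) in each library of the 5 deletion labels, with a horizontal line at each label's mean. The axes do not start at 0. Dyrk1-labelled libraries sit at 4.39 to 4.50 and 4.12 to 4.26, above all others, and HDAC2-labelled libraries at 3.40 to 3.56 and 2.59 to 2.89, below all others.

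The promoters of the lists held different motifs. Promoters of mitotic genes are known to carry a CCAAT box and the cell cycle homology element (CHR), through which MuvB complexes bind, and S phase genes often carry E2F sites. RefSeq windows of 250 bases before to 50 bases after the start (GRCm38.p6) were found for 25 S phase and 25 G2 and mitosis genes. TTTGAA, the core of the CHR, was present on either strand in 18 of 25 G2 and mitosis windows and 3 of 25 S phase windows, against 12.1% of windows of all tested genes and 18.1% of all windows. GCGGGAA, a core of the E2F site, was present in 10 of 25 S phase windows and in 0 of 25 G2 and mitosis windows, against 8.93% of tested genes and 4.66% of all windows. CCAAT was present in 20 of 25 G2 and mitosis windows and 15 of 25 S phase windows, against 39.3% of tested genes and 37.9% of all. A match shows letters only, not a bound site. The 100 bases before the start are shown for 3 mitotic genes whose windows hold a CHR core and 2 S phase genes whose windows hold an E2F core, all with large differences between the labels. Bases that the GENCODE M21 annotation places inside the gene were left out, which moved the Cdc20 window by 9 bases and the Uhrf1 window by 16. Sequences read 5′ to 3′ along the gene, and capitals mark the CCAAT box, the CHR core or the E2F core on either strand.
Top2a (chr11:99024190-99024289, minus strand): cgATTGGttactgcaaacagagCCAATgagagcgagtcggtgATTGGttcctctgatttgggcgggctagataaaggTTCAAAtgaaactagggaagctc
Kif11 (chr19:37376282-37376381, plus strand): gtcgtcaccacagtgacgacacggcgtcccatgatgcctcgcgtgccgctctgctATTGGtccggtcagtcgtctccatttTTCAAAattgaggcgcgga
Cdc20 (chr4:118437353-118437452, minus strand): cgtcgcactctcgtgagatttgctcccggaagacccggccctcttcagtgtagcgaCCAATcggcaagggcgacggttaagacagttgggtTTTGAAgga
Rrm1 (chr7:102441595-102441694, plus strand): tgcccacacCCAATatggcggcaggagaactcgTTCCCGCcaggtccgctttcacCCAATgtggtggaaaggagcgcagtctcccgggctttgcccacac
Uhrf1 (chr17:56303221-56303320, plus strand): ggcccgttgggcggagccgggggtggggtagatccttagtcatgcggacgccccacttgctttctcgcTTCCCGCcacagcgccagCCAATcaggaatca
The mitotic genes shown each have a CCAAT box upstream of a CHR core that begins 23, 19 and 18 bases before the RefSeq start. For Cdc20 that distance includes the 9 bases left out between the printed sequence and the RefSeq start. Rrm1, a ribonucleotide reductase subunit, was at 49.5, 44.9 and 55.2 FPKM with the Dyrk1 label and at 18.8, 24.4 and 20.6 FPKM with the HDAC2 label. Uhrf1, which maintains DNA methylation at replication, was at 49.3, 45.7 and 49.2 FPKM with the Dyrk1 label and at 14.1, 19.2 and 17.6 FPKM with the HDAC2 label. Kif11, a spindle kinesin, was at 29.9, 26.7 and 30.7 FPKM with the Dyrk1 label and at 6.51, 9.93 and 7.52 FPKM with the HDAC2 label. Cdc20 and Top2a values are given above.

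Other genes of division share the choice of the pair and are also given without a test. The kinetochore gene and the kinesin gene that follow were named for their large differences, so their direction was fixed by that choice. Spc24, a kinetochore subunit, was at 24.8, 21.6 and 17.9 FPKM with the Dyrk1 label and at 4.401, 7.09 and 5.66 FPKM with the HDAC2 label. Kif18b, a mitotic kinesin, was at 12.5, 10.6 and 10.9 FPKM with the Dyrk1 label and at 2.38, 3.43 and 2.52 FPKM with the HDAC2 label. Replication histone genes had a median log2 difference of 0.81 over 18 tested of 24 listed genes, from -0.08 to 1.64. Hist1h3c was at 8.09, 7.04 and 7.22 FPKM with the Dyrk1 label and at 1.51, 2.27 and 1.44 FPKM with the HDAC2 label. Histone genes of a cluster are near-identical, and their reads may be split between copies.

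Several genes that restrain the cell cycle were higher with the Dyrk1 label. Of 18 tested inhibitors and other brakes, 9 were higher and 1 lower, beside 8.40% and 9.34% of all genes, with a median log2 difference of 0.23. That count holds Cdkn3, whose transcript goes with division, and Cdkn2c, whose levels were ordered like those of the cell cycle lists. Nothing is read from the count about the list. Cdkn2c, encoding the CDK4/6 inhibitor p18, was at 21.5, 22.01 and 24.1 FPKM with the Dyrk1 label and at 6.33, 8.01 and 6.97 FPKM with the HDAC2 label (log2 difference 1.54). Its Dyrk1 mean lay above and its HDAC2 mean below the other 9 libraries, at 7.47 to 11.6 FPKM, as for most G2 and mitosis genes. Its direction may share the choice of the pair, so Cdkn2c is given as description. Cdkn1a, encoding the CDK inhibitor p21, was at 5.57, 6.95 and 8.22 FPKM with the Dyrk1 label and at 1.63, 2.78 and 1.78 FPKM with the HDAC2 label (log2 difference 1.37, SE 0.20, adjusted p 0.000385). Btg2, an antiproliferative cofactor of mRNA deadenylation, was at 142.5, 163.7 and 128.5 FPKM with the Dyrk1 label and at 88.9, 90.0 and 94.7 FPKM with the HDAC2 label (log2 difference 0.66, SE 0.09, adjusted p 0.000252). The groups did not overlap for any of the 3 genes. For Cdkn1a too, the Dyrk1 mean lay above the other 9 libraries, at 2.07 to 5.43 FPKM, and the HDAC2 mean just below them. Cdkn3, a phosphatase gene whose transcript peaks in mitosis, had a log2 difference of 1.61 and is given as description. Among 13 cyclin D, CDK4/6 and MuvB genes, 5 were higher and 0 lower, with a median of 0.14. The MuvB genes Lin9 and Lin54 were higher by log2 0.45 (adjusted p 0.00607) and 0.45 (adjusted p 0.00418). Tfdp1, the dimer partner of E2F factors, was higher by log2 0.48 (adjusted p 0.011), a call lost when those 3 libraries with many B cell transcripts were left out. How far the differences of these brake, MuvB and E2F genes go with the choice of the pair was not tested.

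Several p53 and stress genes stood high with the Dyrk1 label. Sesn2, a stress-induced inhibitor of mTORC1 that p53 and ATF4 both activate, was at 14.0, 13.9 and 18.8 FPKM with the Dyrk1 label and at 3.04, 3.30 and 3.67 FPKM with the HDAC2 label (log2 difference 1.92, SE 0.13, adjusted p 1.81e-06). Bbc3, encoding the proapoptotic BH3-only protein PUMA, was at 58.4, 68.0 and 55.0 FPKM with the Dyrk1 label and at 18.6, 18.1 and 19.5 FPKM with the HDAC2 label (log2 difference 1.64, SE 0.10, adjusted p 1.39e-06). In the other deletion labels Sesn2 was at 3.06 to 5.01 FPKM and Bbc3 at 16.2 to 23.4 FPKM, ranges that held the HDAC2 mean of both genes and lay below every Dyrk1-labelled library. Phlda3, a p53-induced repressor of AKT, was higher by log2 0.98 (SE 0.16, adjusted p 0.000962) and Trp53inp1 by 0.46 (SE 0.07, adjusted p 0.000788). Gadd45g, a stress sensor that inhibits cyclin B kinase, was at 34.2, 51.6 and 18.5 FPKM with the Dyrk1 label and at 14.4, 14.6 and 12.2 FPKM with the HDAC2 label (log2 difference 1.17, adjusted p 0.0113), and this call was lost in the 6 libraries alone and when the same 3 libraries were left out.

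Of 20 tested members of the p53 list 6 were higher and 1 lower, beside 8.40% and 9.34% of all genes, and the median log2 difference was 0.07, beside -0.03 over all genes. The mean log2(FPKM + 1) of the list was 3.88 to 4.19 with the Dyrk1 label and 3.69 to 3.72 with the HDAC2 label, and 3.65 to 3.85 in the other 9 libraries. The 6 libraries alone gave 4 higher. The list of ATF4 and amino acid stress genes had 22 tested of 28 members, with 3 higher, 0 lower and a median of 0.07, and without Dyrk1 replicate 2 the number higher was 6. Besides Sesn2 these were the serine synthesis genes Psat1 (log2 difference 0.56, SE 0.11, adjusted p 0.00504) and Phgdh (0.42, SE 0.09, adjusted p 0.00748). The ATF4 core TTNCATCA was in the windows of 37.5% of 24 genes of that list, against 2.05% of tested genes. Of 18 heat shock and unfolded protein genes 2 were higher and 0 lower, and neither call, Hsp90aa1 and Hspd1, held in the 6 libraries alone.

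Genes of the BCL2 family moved in both directions. Of 13 tested members 3 were higher and 2 lower with the Dyrk1 label, beside 8.40% and 9.34% of all genes. Among survival genes, Bcl2l1, encoding BCL-XL, was higher (log2 difference 0.49, SE 0.10, adjusted p 0.00392), as was Mcl1 (0.33, SE 0.07, adjusted p 0.00533), and both calls were lost in the 6 libraries alone. Bcl2 was at 36.8, 38.8 and 39.0 FPKM with the Dyrk1 label and at 54.4, 48.2 and 55.6 FPKM with the HDAC2 label, lower in every library of the Dyrk1 label (log2 difference -0.45, SE 0.07, adjusted p 0.00098). Bcl2l2, encoding BCL-W, was lower too (log2 difference -0.70, SE 0.13, adjusted p 0.00294). The pore-forming effector Bak1 was higher (0.46, SE 0.07, adjusted p 0.000518).

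Genes of resting and central T cells were lower with the Dyrk1 label. Of 18 tested, 9 were lower and 0 higher, beside 9.34% and 8.40% of all genes, and the median log2 difference was -0.32. How far the differences of these resting genes go with the choice of the pair was not tested. Leaving out any 1 of the 6 libraries gave 6 to 12 lower, the 6 libraries alone gave 4, and leaving out those 3 libraries with many B cell transcripts gave 12. Ly6c1, a surface protein of resting and memory T cells, was at 25.3, 26.8 and 12.4 FPKM with the Dyrk1 label and at 91.3, 65.4 and 108.2 FPKM with the HDAC2 label (log2 difference -2.03, SE 0.26, adjusted p 0.000158). Igfbp4, a binding protein of insulin-like growth factors, was at 57.3, 55.1 and 46.2 FPKM with the Dyrk1 label and at 88.5, 98.8 and 99.9 FPKM with the HDAC2 label (log2 difference -0.85, SE 0.16, adjusted p 0.00242). Txk, a TEC family kinase, was at 17.1, 20.3 and 18.5 FPKM with the Dyrk1 label and at 28.6, 33.5 and 29.4 FPKM with the HDAC2 label (log2 difference -0.68, SE 0.08, adjusted p 9.50e-05). The groups did not overlap for these 3 genes. For Igfbp4 it was the HDAC2 mean that lay above the other 9 libraries, at 45.3 to 83.2 FPKM, whereas for Ly6c1 the Dyrk1 mean lay below them. For Txk both means lay outside the other 9, on opposite sides. The quiescence factors Bach2 (log2 difference -0.43, adjusted p 0.0126), Satb1 (-0.37, adjusted p 0.00266) and Tcf7 (-0.25, adjusted p 0.0131) were lower, and the calls of all 3 were lost in the 6 libraries alone. The Bach2 call was also lost without HDAC2 replicate 1, and the Tcf7 call without HDAC2 replicate 3.

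Some effector Treg genes were higher. Of 28 tested, 6 were higher and 1 lower, beside 8.40% and 9.34% of all genes, and the median log2 difference was 0.22. How far the differences of these effector genes go with the choice of the pair was not tested. The lectin gene Lgals1 was at 262.8, 282.6 and 221.3 FPKM with the Dyrk1 label and at 130.9, 136.5 and 149.7 FPKM with the HDAC2 label (log2 difference 0.87, SE 0.14, adjusted p 0.000894). Ccr8, a chemokine receptor of activated tissue Treg, was at 35.9, 30.1 and 38.3 FPKM with the Dyrk1 label and at 18.4, 23.1 and 22.4 FPKM with the HDAC2 label (log2 difference 0.68, SE 0.15, adjusted p 0.00711). Icos, a costimulatory receptor, was higher by log2 0.49 (adjusted p 0.0101), and the transcription factors Prdm1 (0.44, adjusted p 0.00587), Batf (0.34, adjusted p 0.00967) and Gata3 (0.31, adjusted p 0.0329) were higher with calls that were lost in the 6 libraries alone. Klrg1, a receptor of terminally differentiated Treg, went the other way, at 8.68, 11.2 and 7.53 FPKM with the Dyrk1 label and 16.3, 27.7 and 18.8 FPKM with the HDAC2 label (log2 difference -1.10, SE 0.19, adjusted p 0.00147). The HDAC2-labelled libraries lay within the range of the other 9 for Klrg1, 13.6 to 28.6 FPKM, and the Dyrk1-labelled ones below it.

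Of 21 tested Treg identity genes 2 were higher and 5 lower, beside 8.40% and 9.34% of all genes, with a median log2 difference of -0.03. In the 6 libraries alone 1 was higher and 1 lower. Gpr83, a receptor enriched in Treg, was at 14.0, 17.8 and 19.6 FPKM with the Dyrk1 label and at 32.9, 30.6 and 32.01 FPKM with the HDAC2 label (log2 difference -0.87, SE 0.14, adjusted p 0.000904). Both means lay below the other 9 libraries, which ran from 37.6 to 61.0 FPKM. Izumo1r, the folate receptor 4 of Treg, was lower by log2 -0.51 (SE 0.09, adjusted p 0.00159) and Cd5, a brake on T cell receptor signalling, by -0.28 (SE 0.06, adjusted p 0.00498), and both calls were lost in the 6 libraries alone. Izumo1r (chr9:14885814-14903949) lies close to Gpr83 (chr9:14860210-14870789). Socs2, a feedback inhibitor induced by STAT5, was at 28.1, 31.2 and 27.4 FPKM with the Dyrk1 label and at 16.2, 15.5 and 15.2 FPKM with the HDAC2 label (log2 difference 0.84, SE 0.12, adjusted p 0.000289). The checkpoint receptor Tigit was higher by 0.60 (adjusted p 0.0383), a call lost in 8 of the 15 alternative settings.

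In signalling, 2 of 14 IL-2 and STAT5 genes were higher and 1 lower, beside 8.40% and 9.34% of all genes. With Socs2, the kinase gene Pim1, another STAT5 target, was higher, at 190.8, 239.8 and 212.6 FPKM with the Dyrk1 label and 126.9, 136.8 and 109.4 FPKM with the HDAC2 label (log2 difference 0.78, SE 0.09, adjusted p 9.06e-05). Of 30 immediate early and NF-κB genes 2 were higher and 0 lower, but 5 were higher without Dyrk1 replicate 3 and 4 were lower without Dyrk1 replicate 2. The mean log2(FPKM + 1) of that list was 5.51, 5.70 and 5.17 with the Dyrk1 label and 5.38, 5.41 and 5.47 with the HDAC2 label. Cd83, an activation marker, was at 56.9, 55.8 and 52.5 FPKM with the Dyrk1 label and at 35.0, 33.0 and 38.3 FPKM with the HDAC2 label (log2 difference 0.62, SE 0.08, adjusted p 0.000193). Nfkb2, the precursor of the p52 subunit, was higher by 0.35 (SE 0.06, adjusted p 0.00164). Among 24 chemokine receptor and trafficking genes, 1 was higher, Ccr8, and 3 were lower, not far from the shares over all genes, with a median log2 difference of -0.20. The number lower was 1 without HDAC2 replicate 1, 5 without Dyrk1 replicate 1 and 6 with all 18 libraries. Gpr18 was at 21.1, 13.8 and 12.6 FPKM with the Dyrk1 label and at 27.5, 28.4 and 33.3 FPKM with the HDAC2 label (log2 difference -0.90, SE 0.14, adjusted p 0.000735), and its neighbour Gpr183, an oxysterol receptor 0.037 Mb away, was lower by log2 -0.45 (SE 0.11, adjusted p 0.0146), a call lost without HDAC2 replicate 1 or HDAC2 replicate 3. Of 18 Th1 genes 2 were lower, Fasl and Stat4, and 0 higher, beside 9.34% and 8.40% of all genes. The Fasl call was lost without HDAC2 replicate 2 or Dyrk1 replicate 2, and the Stat4 call in the 6 libraries alone. Of 26 interferon-stimulated genes 1 was higher and 2 lower. Nothing is read from these counts about the Th1 or interferon lists.

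**Figure D2:**
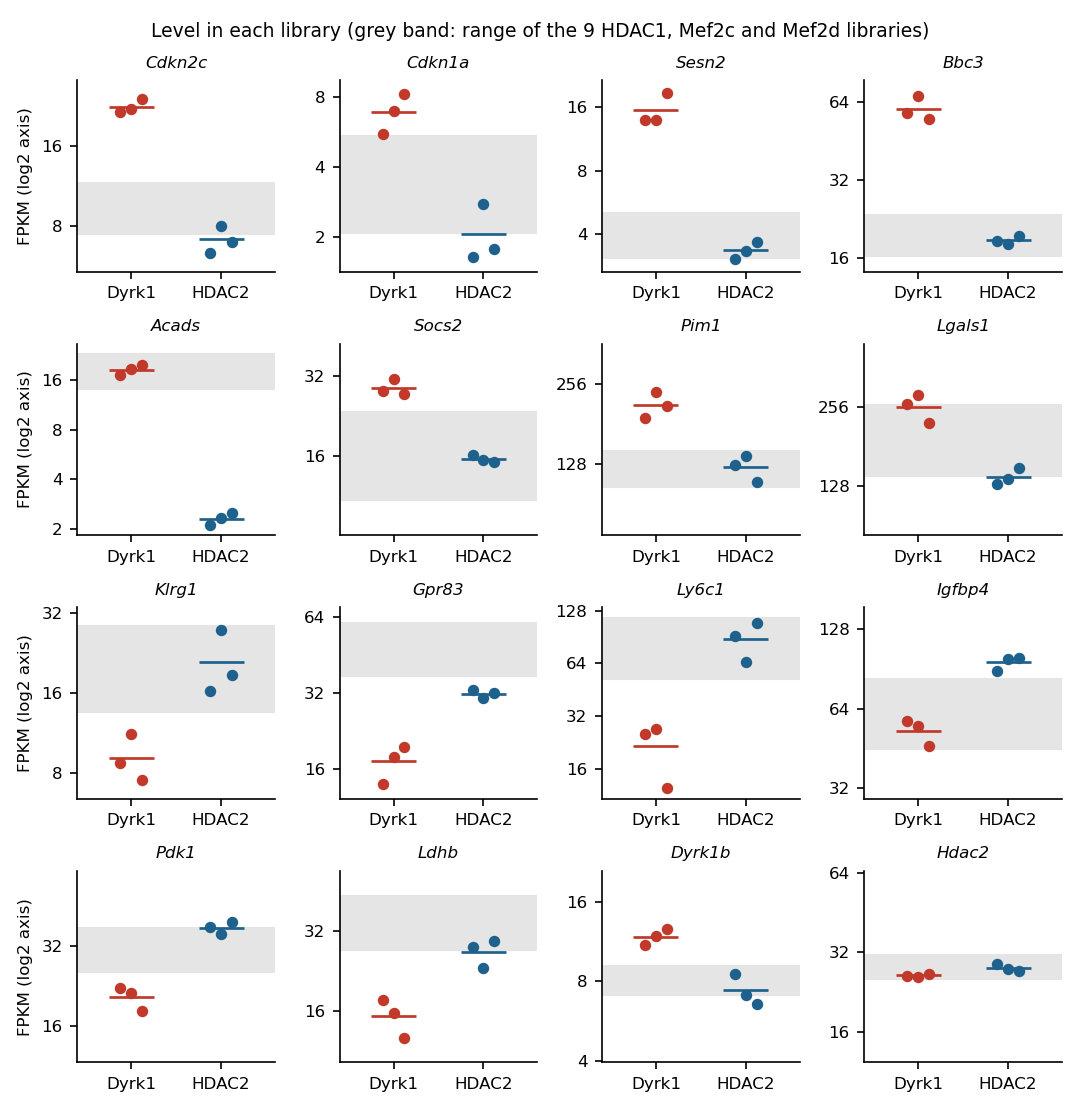
FPKM on a log2 axis for 16 genes in each of the 3 Dyrk1-labelled and 3 HDAC2-labelled libraries, with a line at each mean, over a grey band for the range of the 9 HDAC1, Mef2c and Mef2d libraries. Sesn2 and Bbc3 show the Dyrk1 label above the band and Acads the HDAC2 label below it, while Hdac2 lies in the band under both labels.

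Glucose metabolism split within its list, and the split was seen only after the values were known. Of 23 glycolysis and pyruvate genes, 5 were higher and 7 lower, beside 8.40% and 9.34% of all genes, and the median log2 difference was 0.04. The lower genes included both glucose transporters that passed, the lactate dehydrogenase B gene and the kinase that closes off pyruvate dehydrogenase. Pdk1, that kinase, was at 22.1, 21.2 and 18.1 FPKM with the Dyrk1 label and at 37.7, 35.3 and 39.4 FPKM with the HDAC2 label (log2 difference -0.84, SE 0.09, adjusted p 4.63e-05). Ldhb was at 17.5, 15.7 and 12.7 FPKM with the Dyrk1 label and at 27.8, 23.1 and 29.3 FPKM with the HDAC2 label (log2 difference -0.77, SE 0.11, adjusted p 0.000301). The transporters Slc2a3 and Slc2a1 were lower by log2 -0.50 (SE 0.09, adjusted p 0.00148) and -0.39 (SE 0.08, adjusted p 0.00369). The 5 higher genes were Tpi1, Gapdh, Pgk1, Pgam1 and Pkm, which encode enzymes of glycolysis, at log2 differences of 0.27 to 0.40. Pgam1 (log2 difference 0.35, adjusted p 0.00215) passed in every setting run. The other 4 did not pass in the 6 libraries alone, and Gapdh has many processed copies.

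In other metabolic lists the counts depended on the libraries used, and they stand beside 8.40% higher and 9.34% lower over all genes. Of 35 nuclear genes of oxidative phosphorylation 5 were higher and 0 lower, with a median log2 difference of 0.18, but limma on the 6 libraries alone gave 0 (7 at an unadjusted p under 0.05), leaving out Dyrk1 replicate 1 gave 1, and leaving out Dyrk1 replicate 3 gave 18. RLE scaling, which divides by the median ratio to a common reference, gave 10, taking out trends with gene length and GC content gave 14, and leaving out the 3 libraries with many B cell transcripts gave 1. Of 12 mitochondrially encoded genes 0 passed in limma, and 0 had an unadjusted p under 0.05. Of 19 nucleotide synthesis genes 6 were higher and 1 lower, and 1 was higher in the 6 libraries alone and also when the 3 libraries with many B cell transcripts were left out. The number higher was 3 without HDAC2 replicate 1, HDAC2 replicate 2 or Dyrk1 replicate 1. Paics, a purine synthesis enzyme, was higher by log2 0.35 (SE 0.06, adjusted p 0.00198), and Impdh1, which commits purines to guanine nucleotides, was lower by log2 -0.40 (SE 0.06, adjusted p 0.000748). For Paics the Dyrk1 mean lay above and the HDAC2 mean below the other 9 libraries, at 48.3 to 58.2 FPKM. How far the Paics difference goes with the choice of the pair was not tested. Of 26 cholesterol genes 2 were higher and 6 lower, and the 6 libraries alone gave 1 lower. Without HDAC2 replicate 1 the number lower was 2, and without HDAC2 replicate 3 or Dyrk1 replicate 1 it was 3. Of 22 ribosome biogenesis genes and 32 cytosolic ribosomal protein genes 0 passed in limma in either direction, with medians of 0.06 and 0.02, and 1 and 2 had an unadjusted p under 0.05.

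Among 24 genes of class I deacetylases and their corepressors, 4 were higher and 0 lower with the Dyrk1 label, beside 8.40% and 9.34% of all genes. The histone chaperones Rbbp7 (log2 difference 0.44, SE 0.06, adjusted p 0.000278) and Rbbp4 (0.31, SE 0.05, adjusted p 0.000904), shared by Sin3, NuRD and other complexes, passed in every setting run. For both genes the Dyrk1 mean lay above and the HDAC2 mean below the other 9 libraries, as for most G2 and mitosis genes. How far their differences go with the choice of the pair was not tested. Hdac1, the paralog of Hdac2, was at 128.3, 125.5 and 116.6 FPKM with the Dyrk1 label and at 109.6, 103.6 and 107.8 FPKM with the HDAC2 label. The groups did not overlap, but Hdac1 did not pass (log2 difference 0.20, SE 0.08, adjusted p 0.094) except where trends with gene length and GC content were taken out. In the other 9 libraries, which include the HDAC1 label, Hdac1 was at 27.8 to 121.55 FPKM. In the list of DYRK and HIPK kinases, MEF2 factors and class IIa deacetylases, 1 of 13 tested genes was higher, Dyrk1b, and 2 lower. Mef2d, a transcription factor that class IIa deacetylases repress, was at 41.5, 37.7 and 34.7 FPKM with the Dyrk1 label and at 52.2, 47.6 and 50.01 FPKM with the HDAC2 label (log2 difference -0.39, SE 0.07, adjusted p 0.0018). The Dyrk1-labelled libraries were all below the other 9 deletion libraries for Mef2d, 43.9 to 53.9 FPKM.

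**Figure D3:**
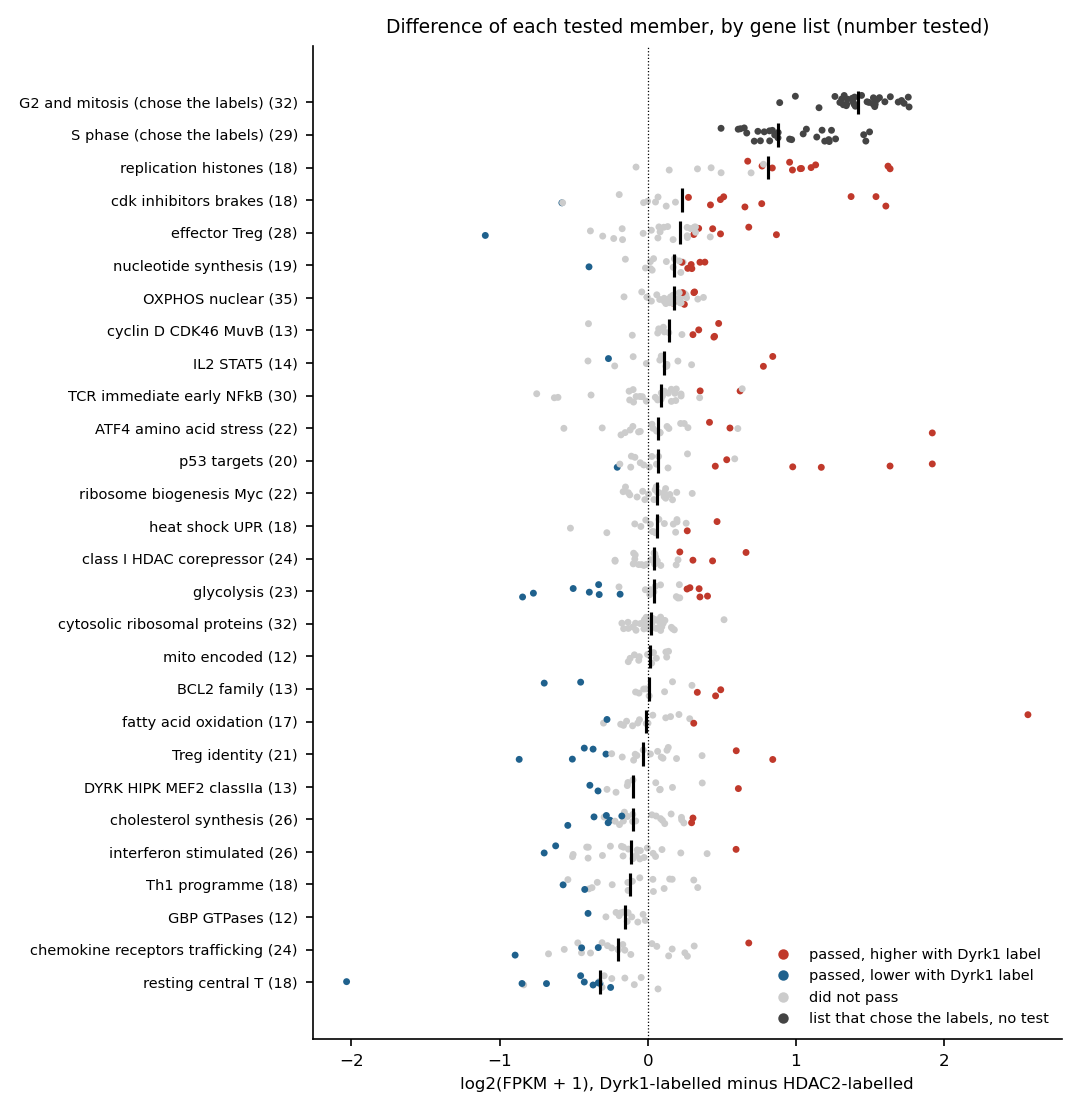
Log2 difference, Dyrk1-labelled minus HDAC2-labelled, of each tested member of 28 gene lists, with a black bar at each list's median and the number tested in parentheses. Points are coloured by whether the gene passed, and the cell cycle lists that chose the labels are dark grey. The medians run from -0.32 for resting and central T cell genes to 1.42 for G2 and mitosis.

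Some of the largest differences concerned single genes or gene copies. Acads, encoding the short-chain acyl-CoA dehydrogenase of mitochondrial fatty acid oxidation (chr5:115110299-115119346), was at 17.3, 18.7 and 19.8 FPKM with the Dyrk1 label and at 2.10, 2.31 and 2.503 FPKM with the HDAC2 label (log2 difference 2.57, SE 0.09, adjusted p 2.87e-09). Acads was at 14.2 to 23.3 FPKM in the other 9 libraries, so the HDAC2 label alone stood apart. The other fatty acid oxidation genes did not follow, with 2 of 17 tested higher, Acads included, 1 lower and a median log2 difference of -0.01. Hmgb1-ps8, a processed pseudogene, was at 14.0, 17.8 and 15.4 FPKM with the Dyrk1 label, listed at 0, 0 and 0.066 FPKM with the HDAC2 label, and at 15.1 to 24.5 FPKM in the other 9. It lies on chromosome 10, 14.7 Mb from Hdac2, inside the spans of H60b and the antisense gene Gm26740, and the strand setting of the counting is not known. Its parent gene Hmgb1 was at 141.8, 129.8 and 142.2 FPKM with the Dyrk1 label and at 88.1, 106.3 and 89.3 FPKM with the HDAC2 label.

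Within 20 Mb of Hdac2, 23.2% of 99 tested genes passed, 12 higher and 11 lower, beside 17.7% of all genes. Around Dyrk1a the share was 13.4% of 67 genes, around Dyrk1b 13.7% of 329, and around Acads 16.0% of 288. By chromosome the share ran from 12.5% on chromosome 18 to 19.6% on chromosomes 4 and 12, leaving out the mitochondrial genome and the Y chromosome, where 0 of 12 and 0 of 8 passed in limma and 0 and 2 had an unadjusted p under 0.05.

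Copies of ribosomal protein gene Rps3a differed in a way that other labels shared. Rps3a3, a processed pseudogene on chromosome 13, was at 867, 442 and 276 FPKM with the Dyrk1 label and at 1.74, 1.51 and 1.51 FPKM with the HDAC2 label, and Rps3a1 was at 466, 1145 and 946 FPKM with the Dyrk1 label and 1623, 1574 and 1769 FPKM with the HDAC2 label. In Mef2d-labelled libraries Rps3a3 was at 740 to 864 FPKM and Rps3a1 at 424 to 488 FPKM, while in HDAC1-labelled libraries Rps3a3 was at 1.20 to 1.596 FPKM. The copies are near-identical, so how reads were divided between them is uncertain. Atp6v0c-ps2, a pseudogene of a proton pump subunit, was at 0.552, 0.889 and 0.467 FPKM with the Dyrk1 label and at 60.9, 31.0 and 22.8 FPKM with the HDAC2 label. It was also high with the Mef2c and Mef2d labels, at 58.6 to 65.7 and 32.4 to 45.3 FPKM, and low with the HDAC1 label, at 0.342 to 0.707 FPKM. Crabp2, a retinoic acid binding protein gene that lies 0.19 Mb from Mef2d, was at 0.497, 0.592 and 0 FPKM with the Dyrk1 label and at 41.6, 31.9 and 6.55 FPKM with the HDAC2 label (log2 difference -4.04, SE 0.89, adjusted p 0.00745). HDAC1-labelled libraries ranged from 0.151 to 20.4 FPKM for Crabp2, so it varied within a label.

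Further single genes were low with the Dyrk1 label. Ppm1j, a protein phosphatase gene, was at 7.07, 8.94 and 4.96 FPKM with the Dyrk1 label and at 27.0, 26.7 and 30.4 FPKM with the HDAC2 label (log2 difference -1.89, SE 0.18, adjusted p 1.97e-05), and the other 9 libraries lay between the groups, at 14.5 to 23.3 FPKM. Ifi208, a gene of the interferon-inducible PYHIN family, was at 5.97, 7.69 and 4.58 FPKM with the Dyrk1 label and at 21.3, 21.97 and 24.7 FPKM with the HDAC2 label (log2 difference -1.76, SE 0.30, adjusted p 0.00147), while 1 HDAC1-labelled library was also high, at 21.6 FPKM. On chromosome 9, Gsta4, a glutathione transferase gene, and Myo6, an unconventional myosin gene 1.96 Mb away, were lower by log2 -1.58 (SE 0.22, adjusted p 0.000343) and -1.37 (SE 0.13, adjusted p 2.36e-05). Genes outside the lists were higher as well. Pik3r3, a regulatory subunit of PI3-kinase, was at 6.53, 8.64 and 7.19 FPKM with the Dyrk1 label and at 2.36, 1.67 and 1.99 FPKM with the HDAC2 label (log2 difference 1.49, SE 0.13, adjusted p 1.34e-05). Rec8, a cohesin subunit best known from meiosis, was at 20.7, 28.6 and 18.8 FPKM with the Dyrk1 label and at 7.70, 7.03 and 5.97 FPKM with the HDAC2 label (log2 difference 1.57, SE 0.17, adjusted p 3.88e-05).

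To see which label stood away, each gene that passed was set against the range of the 9 libraries of the HDAC1, Mef2c and Mef2d labels, as a description. A mean counted as outside only on the side of its difference, so Gpr83, with both means below the range, counts under the Dyrk1 label. Of the 968 higher genes, the Dyrk1 mean alone lay outside that range for 504 (52.1%), the HDAC2 mean alone for 71 (7.33%), both on opposite sides for 297 (30.7%) and neither for 96 (9.92%). Of the 1077 lower genes, the Dyrk1 mean alone lay outside for 662 (61.5%), the HDAC2 mean alone for 106 (9.84%), both for 115 (10.7%) and neither for 194. How far the differences of genes with both means outside go with the choice of the pair was not tested. Over all genes tested, on either side, the Dyrk1 mean lay outside for 28.2% and the HDAC2 mean for 12.3%. By this rule Acads and Igfbp4 were among the few placed under the HDAC2 label, and Sesn2, Bbc3 and Ly6c1 among the many placed under the Dyrk1 label. The rule uses the range alone. For Igfbp4 the median of the other 9 libraries, 71.4 FPKM, lay between the Dyrk1 mean of 52.9 FPKM and the HDAC2 mean of 95.8 FPKM, away from both.

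**Figure D4:**
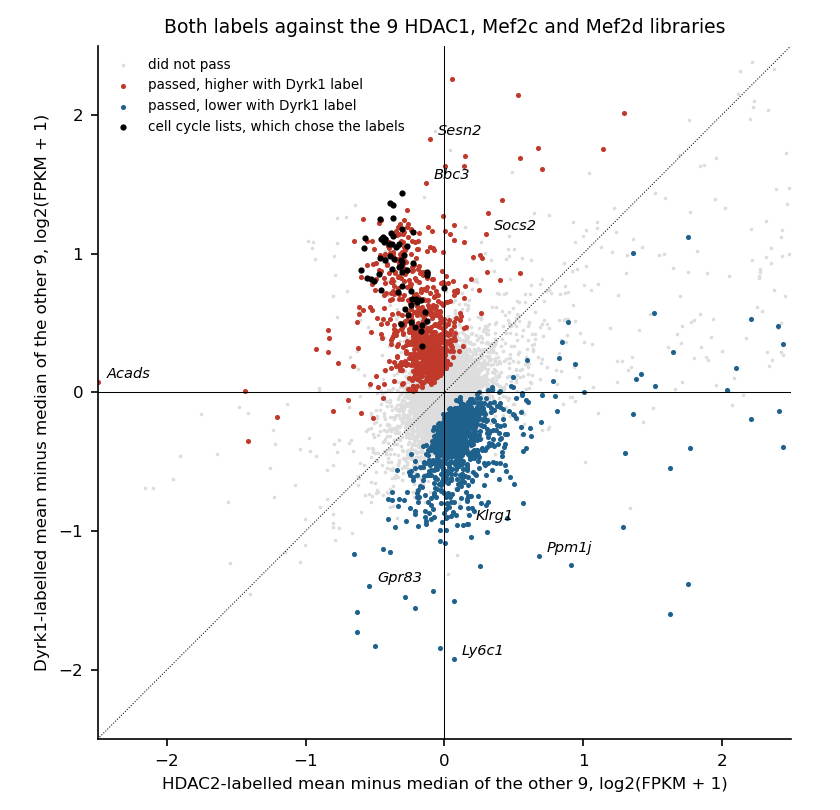
Each tested gene by its HDAC2-labelled mean (x) and its Dyrk1-labelled mean (y), both minus the median of the 9 HDAC1, Mef2c and Mef2d libraries, on the log2(FPKM + 1) scale, with 97 genes beyond the axes. Genes that passed spread mostly along the vertical axis, and the cell cycle lists (black), which chose the labels, sit high and left of 0.

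Markers of plasma cells and red cells differed between the labels, though the higher levels were not particular to the HDAC2 label. HDAC1-labelled libraries had plasma cell sums of 2110, 6490 and 2400 FPKM and erythroid sums of 168, 269 and 95.8 FPKM. With the Mef2c and Mef2d labels these sums were 260 to 778 FPKM and 15.8 to 60.2 FPKM. Of 9 plasma cell genes 4 were lower and 0 higher, beside 9.34% and 8.40% of all genes, with a median log2 difference of -1.03. Their summed levels were 1100 to 1430 FPKM with the Dyrk1 label and 3510 to 10800 FPKM with the HDAC2 label. The number lower was 1 without HDAC2 replicate 2, and 2 without Dyrk1 replicate 1 or 2 and in the 6 libraries alone. Igha, the IgA heavy chain constant gene, was at 895, 1038 and 630 FPKM with the Dyrk1 label and at 2782, 8545 and 3133 FPKM with the HDAC2 label (log2 difference -2.33, SE 0.49, adjusted p 0.00547). Immunoglobulin genes made up 1.96, 1.82 and 2.77% of the FPKM total with the Dyrk1 label and 3.70, 10.9 and 5.16% with the HDAC2 label, and 33 of 195 tested segments were lower and 1 higher. Of 6 tested erythroid genes 5 were lower, with summed levels of 9.52 to 45.1 FPKM with the Dyrk1 label and 47.0 to 308 FPKM with the HDAC2 label, and in limma on the 6 libraries alone 0 passed while 5 had an unadjusted p under 0.05. The number lower was 1 without HDAC2 replicate 2, Dyrk1 replicate 1 or Dyrk1 replicate 2, and without HDAC2 replicate 3 the limma count was 0, with 4 of 5 tested at an unadjusted p under 0.05. Hbb-bs, a beta globin gene, was at 5.15, 2.77 and 14.04 FPKM with the Dyrk1 label and at 17.9, 81.7 and 130.2 FPKM with the HDAC2 label. B cell, myeloid and gamma-delta T cell lists had 0 genes that passed in limma, with 0, 0 and 1 at an unadjusted p under 0.05, and of 9 CD8 and NK genes 1 was lower. The myeloid list was not level, since its sum was 1240 FPKM in Dyrk1 replicate 1 and 212 and 213 FPKM in replicates 2 and 3. With the HDAC2 label the myeloid sums were 178 to 354 FPKM. No marker of these lists was at 0 in any of the 6 libraries. The part of other cells in the differences between the labels was not tested.

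**Figure D5:**
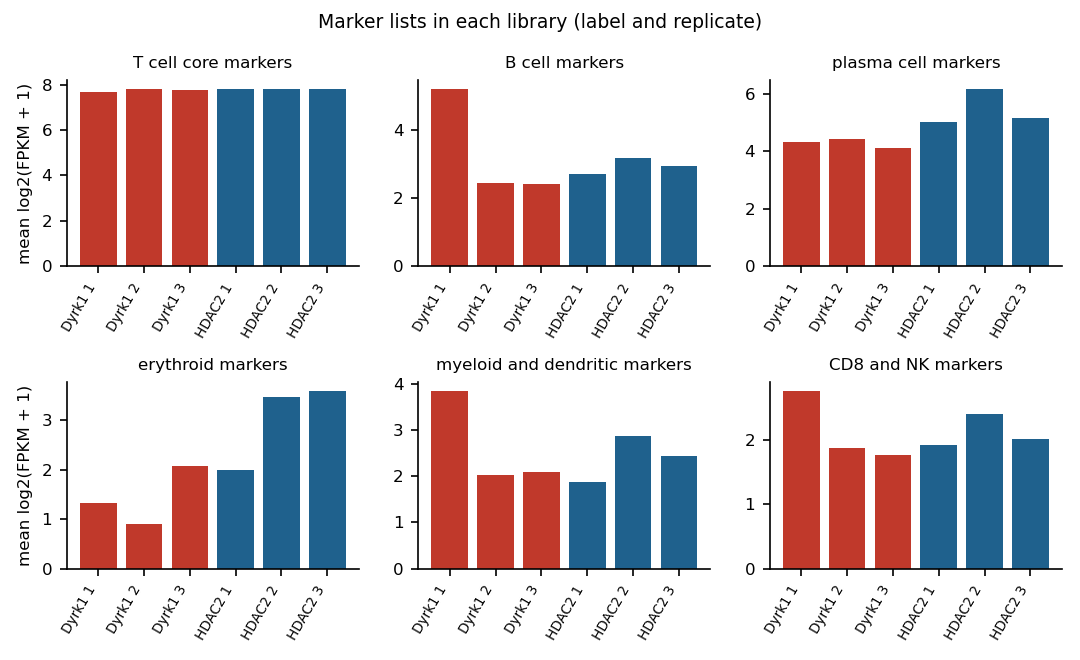
Mean log2(FPKM + 1) over 6 marker lists in the 3 Dyrk1-labelled (left bars) and 3 HDAC2-labelled libraries (right bars), numbered by replicate, with axes from 0. T cell core markers are level at 7.66 to 7.81, B cell markers reach 5.19 in Dyrk1 replicate 1, and plasma cell markers run from 4.12 to 4.44 with the Dyrk1 label and 5.02 to 6.18 with the HDAC2 label.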

How the data were processed

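RNA of sorted Treg was sequenced as paired reads. Per the submitters' processing notes, STAR and HTSeq were used with the mm10 build. Versions, strand setting and annotation release are not given in the sources used here. The table deposited by the authors holds FPKM, a unit inferred from its numbers since no label or header names it. Of 35275 gene identifiers 34490 had a symbol in GENCODE M21, whose positions on mm10 are used. Read depth is an estimate from the commonest low step of the values times exon length, since exon lengths of the authors' annotation are not known, and 0 columns of per-sample values went unused. Counting error is covered by no interval here.

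A pseudocount of 1 was added before taking log2, and limma 3.58.1 under R 4.3.3 gave a fit of a mean per label over the 15 libraries with a deletion label (10 residual degrees of freedom, variance trend on level). A gene was tested if 3 or more of the 6 libraries reached 1 FPKM, with Benjamini-Hochberg adjustment over all of them. Members, gene lists and tests were chosen with earlier results of these data known. Genes named were the targeted genes and Foxp3, the 8 largest differences each way outside the cell cycle lists among genes of at least 5 FPKM with groups that did not overlap, and up to 3 members per list that passed (4 by level for cell cycle lists, 2 by level where none passed). Clone-like, immunoglobulin, T cell receptor and Y-linked symbols were left out of that rule. Genes named after their values were seen are Gsta4, Myo6, Rps3a1, Pik3r3, Rec8, Hdac1, Hmgb1, Bcl2, Mcl1, Tcf7, Bach2, Satb1, Tpi1, Gapdh, Pgk1, Pgam1, Pkm, Slc2a1, Icos, Batf, Gata3, Prdm1, Phlda3, Trp53inp1, Btg2, Izumo1r, Ccne1, Cd8a, H60b, Gm26740, Map7, Mtfr2 and the genes whose promoters are shown.

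On simulated counts turned into FPKM (11551 genes, dispersion 0.02), the fit recovered 26% of genes changed 1.5-fold, 98% at 2-fold and 100% at 4-fold, and 6.61% of calls were unchanged genes. The changed genes were drawn from well-expressed genes only, and every gene had the same dispersion. Recovery of low or more variable genes was therefore not measured. Promoter sequences are from RefSeq (GRCm38.p6), 1 window a gene for 27025 genes, of which 8496 were tested. Alternatives were a pseudocount of 0.1, no filter, a filter of 5 FPKM, median-of-ratios (RLE) scaling, other sets of libraries, a replicate block, and removal of gene length and GC trends. Leaving out 3 libraries with many B cell transcripts was chosen after seeing the data.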

Additional observations from a re-analysis of the deposited data

How the results depend on the processing

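The 2045 genes that passed (968 higher, 1077 lower with the Dyrk1 label) became 880 (505 higher, 375 lower) in the 6 libraries alone, a fit with 4 residual degrees of freedom. Leaving out 1 library of the pair gave 1258 to 2092 genes, 658 to 1059 higher and 600 to 1198 lower. Where this moved the count by over 1.5 times, the library left out was HDAC2 replicate 1 (1258) or HDAC2 replicate 3 (1287). All other settings stayed within 1.5 times, namely a pseudocount of 0.1 (2028), no filter (1783), a filter of 5 FPKM (1479), RLE scaling (2020), all 18 libraries (2113), removal of length and GC trends (2286), and leaving out 3 libraries with many B cell transcripts (1465). With RLE scaling 1075 genes were higher and 945 lower.

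Replicate numbers did not pair the libraries. Deviations of same-numbered libraries correlated at -0.062, -0.268 and -0.246, and with the replicate number as a block 1726 genes passed (844 higher, 882 lower). Of 87 genes named by the rule that passed, 57 passed in all 15 alternatives that could give a value and 61 in the 6 libraries alone, and 0 of the genes named reversed. At an unadjusted p under 0.05 the count was 3633. Each label had 3 libraries, and in simulated data 2% of genes with the smallest simulated fold were recovered.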

Other observations

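Of 174 T cell receptor segments tested, 2 were higher and 6 lower with the Dyrk1 label, fewer in each direction than the 8.40% and 9.34% of all genes. Map7 and Mtfr2, neighbours on chromosome 10 at 16.7 and 16.6 Mb from Hdac2, were higher by log2 1.03 (SE 0.08, adjusted p 7.35e-06 in limma) and 1.18 (SE 0.15, adjusted p 0.000204 in limma). For Map7 both means, 8.37 FPKM with the Dyrk1 label and 3.60 FPKM with the HDAC2 label, lay below the other 9 libraries. Those ran from 9.17 to 11.3 FPKM. For Mtfr2 the Dyrk1 mean lay above and the HDAC2 mean below the other 9, as for most G2 and mitosis genes. How far the Mtfr2 difference goes with the choice of the pair was not tested. Both genes were chosen after their values were seen.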
